A study of Mus musculus with 18 samples.

Results

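Eosinophils of the small intestine carry surface molecules that tell T cells and the surrounding tissue how to respond, and 9 of the genes that encode them are described here. They were chosen by name, as molecules used to recognise active intestinal eosinophils: Cd274 and Pdcd1lg2 (the ligands of the inhibitory receptor PD-1), Cd80 and Cd86 (the ligands of CD28 and CTLA-4), the receptor gene Cd40, the early activation marker Cd69, the adhesion molecules Icam1 and Cd44, and the tetraspanin gene Cd9. All 9 were found among the 22708 genes of the deposited table.

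The study asked what the aryl hydrocarbon receptor (AHR), a transcription factor switched on by dietary and microbial ligands, does in these cells. Eosinophils were enriched with beads against CD11b and sorted from the small intestine as CD11b+MHC-II-SiglecF+SSChi cells. Their RNA was isolated directly after the sort and then sequenced. There were 18 samples from C57/BL6 mice, 6 wild type (WT), 6 Ahr knockout (Ahr-/-) and 6 labelled as Ahrr knockout (Ahrr-/-). Ahrr encodes the AHR repressor, and its loss in the samples labelled Ahrr-/- could not be checked, as described below. Each genotype had 3 females (F1 to F3) and 3 males (M1 to M3). The Ahr deletion is present in every cell of the animal, so that a difference can arise in the eosinophil or around it. WT and Ahr-/- mice came from separate litters and were kept in separate cages, so genotype and litter or housing cannot be told apart. Total counts, recovered from the deposited values, ran from 3842977 in WT F3 to 12046933 in Ahrr-/- F3, with medians of 6022410 in WT, 9647590 in Ahr-/- and 10371556 in Ahrr-/-. WT F3 and Ahr-/- F3 had the most genes with at least 1 count, 20244 and 19694, where the other 16 ran from 15146 in WT F2 to 17236 in Ahrr-/- M3. By correlation across genes, Ahrr-/- M3 and M1 were least like the rest, with a median r of 0.9055 and 0.9152 to the other samples, where the other 16 ran from 0.9396 to 0.969.

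As background, a T cell that meets its antigen needs further signals before it divides. CD80 and CD86 give such a signal through CD28 and a restraining one through CTLA-4, PD-L1 and PD-L2 (the products of Cd274 and Pdcd1lg2) restrain T cells through PD-1, and CD40 receives help from CD40 ligand on T cells. CD69 appears within hours of activation on many leukocytes and holds them in tissue by pulling the receptor for sphingosine-1-phosphate inside the cell. ICAM1 binds the beta 2 integrins, CD44 binds hyaluronan of the matrix, and CD9 organises integrins and other membrane proteins into patches. In the intestine, eosinophils that carry CD80 and PD-L1 are regarded as an active state.

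The genotype labels were checked first. On the deposited variance-stabilized log2 scale, whose lowest value of 5.02 is a count of 0, the direct AHR target Ahrr had a WT median of 10.12 (range 9.79 to 10.39) and an Ahr-/- median of 5.25 (range 5.02 to 5.79). The other classic targets followed, with Ahr-/- minus WT differences of -4.07 for Cyp1b1, -2.60 for Tiparp and -1.82 for Nqo1, and no overlap between the groups. Cyp1a1 was near the lowest value in every sample (5.02 to 6.05) and was not tested. The Ahr transcript itself was not lower in Ahr-/- (lowest 14.15, median 14.55, highest 14.67) than in WT (lowest 13.40, median 13.76, highest 14.40). Likewise, Ahrr lay between 9.95 and 10.93 in Ahrr-/- samples. Which part of either gene was deleted is not known, and reads were counted over the gene as a whole, so these levels leave the Ahrr-/- label unchecked.

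The sorted cells carried eosinophil transcripts. The 9 eosinophil markers summed to a median of 35016 normalized counts in WT, 44604 in Ahr-/- and 32028 in Ahrr-/-, with Alox15 the most abundant, and Ear6 was the only one with a median count of 0. Transcripts of other cells were present at lower sums in most lists. In WT, Ahr-/- and Ahrr-/-, the median sum was 1901, 2104 and 3154 normalized counts for 15 macrophage and dendritic cell markers. For 9 T cell and innate lymphocyte markers it was 43.5, 48.6 and 90.4, and for 6 mast cell markers 83.9, 107 and 187. Fibroblast markers had median sums of 85.7, 77.1 and 317, epithelial markers 4836, 4606 and 11582, and plasma and B cell markers 548, 286 and 3898. Each of these lists was highest by median in Ahrr-/-. The endothelial list (3323 in WT, 2798 in Ahrr-/-) and the acinar list (1151 and 48.8) were highest in WT. The neutrophil list came to 36170 in WT, of which Retnlg alone made up 35385, and the neutrophil genes Ly6g and Camp had a median count of 0. Ahrr-/- M3 had the lowest eosinophil sum of all 18 samples (14320) and the highest epithelial (16831) and fibroblast (1626) sums. In a bulk sample, fewer cells of a type and less RNA per cell cannot be told apart.

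Levels of the members spanned a wide range. Per 1000 bases of exon, the highest median level over the 18 samples was that of Cd9, at 1909 normalized counts (999 to 2810). Cd274 (median level 1550, range 697 to 3743) and Cd44 (median level 1477, range 761 to 1908) came next, and the order of these 3 varied with sex and genotype. Cd9 lay above Cd274 in 4 of 9 females and 7 of 9 males, and in 2 of 6 WT, 5 of 6 Ahr-/- and 4 of 6 Ahrr-/- samples. Cd274 lay above Cd44 in 8 of 9 females and 2 of 9 males, and in 4 of 6 WT, 2 of 6 Ahr-/- and 4 of 6 Ahrr-/- samples. Cd80 followed at a level of 907 (452 to 1540), below Cd44 in every sample. In contrast, Icam1 had a median level of 155 per 1000 bases, Cd69 of 80.2, Cd86 of 48.1 and Pdcd1lg2 of 28.3. Cd69 was above Cd86 in all 6 WT and all 6 Ahrr-/- samples and in 0 of 6 Ahr-/- samples. Icam1 exceeded Cd69 in 17 of 18 samples and Cd86 exceeded Pdcd1lg2 in 15. The exon length joins all annotated exons of a gene, 6509 bases for Cd69, 4360 for Icam1 and 3661 for Cd86. The order between genes therefore rests in part on the annotation. Cd9 and Cd274 each had a mean level above 98.9% of all tested genes, Cd80 above 97.7% and Pdcd1lg2 above 46.3%.

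**Figure D1:**
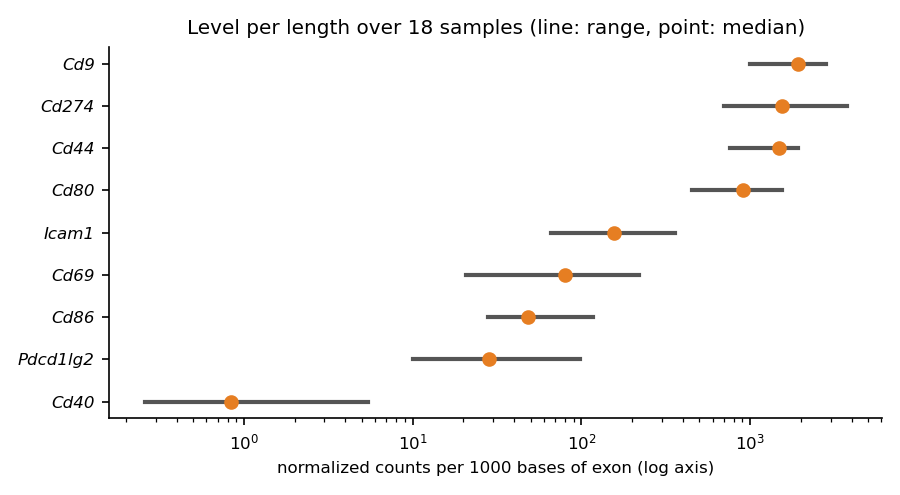
Level of each member in normalized counts per 1000 bases of exon, on a log axis. The line runs from the lowest to the highest of the 18 samples and the point is the median, which falls from 1909 for Cd9 to 0.838 for Cd40.

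Cd40 was at the lower end of detection. Its counts ran from 1 to 16 over the 18 samples, with median normalized counts of 2.24 in WT, 2.39 in Ahr-/- and 4.59 in Ahrr-/-, and a median level of 0.838 normalized counts per 1000 bases. It was below the minimum for testing, so 8 of the 9 members were tested and differences of Cd40 between groups were not. The adaptors and kinases through which CD40 signals were all detected, with 9 of 9 tested.

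Within each ligand pair, one gene dominated. The level of Cd274 per 1000 bases was 45.6 times that of Pdcd1lg2 by the median over all samples, with the lowest ratio of 28.3 in Ahrr-/- F2 and the highest of 108 in Ahr-/- F2. By group, that ratio had a median of 45.6 in WT, 75.1 in Ahr-/- and 36.2 in Ahrr-/-. Cd80 was above Cd86 by a median ratio of 17.7 (11.8 to 28.3). Between the pairs, Cd274 exceeded Cd80 by a median ratio of 1.92 in females and 1.29 in males.

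The promoters of 6 members were found in the RefSeq promoter table (build GRCm38.p6, 250 bases before to 50 bases after the start), and those of the 4 members that differed between the sexes (below in males, as described further on) are shown, because these genes moved together. Capitals mark matches to the core of the AHR response element, GCGTG, which reads CACGC on the other strand, and to the STAT element TTCNNNGAA, each searched on both strands. The Cd274 window is chr19:29367188-29367487 (plus strand), with GCGTG at -201 to -197 from the start. Both this window and that of Cd80 lie inside the gene as placed by RefSeq, which starts at 29362107 for Cd274 and 38457430 for Cd80. The Icam1 window is chr9:21015690-21015989 (plus strand), with GCGTG at -242 to -238 and the STAT element at -42 to -34. Neither set of letters is in the windows of Cd80 (chr16:38458683-38458982, plus strand) and Pdcd1lg2 (chr19:29410669-29410968, plus strand). Of the 2 promoters not printed, that of Cd9 holds GCGTG at 43 to 47 after the start and that of Cd44 holds neither. Of 32851 promoters of this length in the table, 32.4% hold GCGTG and 8.3% the STAT element, and a match is a description of the letters, not of binding.
Cd274: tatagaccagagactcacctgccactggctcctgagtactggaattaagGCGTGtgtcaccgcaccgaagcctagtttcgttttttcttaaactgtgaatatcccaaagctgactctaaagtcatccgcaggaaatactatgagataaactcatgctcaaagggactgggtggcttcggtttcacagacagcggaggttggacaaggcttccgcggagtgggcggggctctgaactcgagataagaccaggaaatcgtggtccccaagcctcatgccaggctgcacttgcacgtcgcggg
Icam1: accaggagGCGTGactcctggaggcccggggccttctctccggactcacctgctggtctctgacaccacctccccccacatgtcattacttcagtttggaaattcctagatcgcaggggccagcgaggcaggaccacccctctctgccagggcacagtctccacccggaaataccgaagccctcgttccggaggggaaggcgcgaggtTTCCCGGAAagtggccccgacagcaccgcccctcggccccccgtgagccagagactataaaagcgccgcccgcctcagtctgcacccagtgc
Cd80: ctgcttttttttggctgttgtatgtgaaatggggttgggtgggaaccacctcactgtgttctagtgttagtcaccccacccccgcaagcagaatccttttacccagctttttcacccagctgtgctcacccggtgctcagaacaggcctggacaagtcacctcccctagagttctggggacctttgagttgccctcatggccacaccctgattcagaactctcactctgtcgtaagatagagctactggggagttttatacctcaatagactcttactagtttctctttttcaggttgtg
Pdcd1lg2: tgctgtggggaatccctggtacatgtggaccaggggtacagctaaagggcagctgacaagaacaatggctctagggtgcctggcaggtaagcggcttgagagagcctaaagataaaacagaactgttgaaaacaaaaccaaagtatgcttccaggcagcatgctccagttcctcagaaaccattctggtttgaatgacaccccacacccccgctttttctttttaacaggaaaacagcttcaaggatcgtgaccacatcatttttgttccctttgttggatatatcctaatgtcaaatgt

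To find which members depend on AHR, Ahr-/- eosinophils were compared with WT, and Cd69 stood out. Cd69 lay at 9.13, 9.46 and 10.54 in WT (lowest, median and highest of 6 samples) and at 7.60, 8.09 and 8.81 in Ahr-/-. Every Ahr-/- sample was below every WT sample, with a gap of 0.32 between Ahr-/- F2, the highest of its group, and WT M2, the lowest of its own. In normalized counts, the median was 641 in WT and 212 in Ahr-/-. The difference, Ahr-/- minus WT, was -1.54 (SE 0.22, 95% confidence interval -2.01 to -1.08, adjusted p = 0.00027). It was -1.29 in females and -1.79 in males, and in each sex the 3 Ahr-/- samples lay below the 3 WT samples, as they also did for Pdcd1lg2. The share of all genes without overlap between these genotypes was not determined.

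Pdcd1lg2, the minor of the PD-1 ligands, was the other member past the threshold of an adjusted p below 0.05. Its values were 6.64, 7.12 and 7.98 in WT (lowest, median and highest) and 6.12, 6.56 and 6.80 in Ahr-/-. The groups overlapped, and 4 of the 6 Ahr-/- samples were below every WT sample. The difference was -0.65 (SE 0.17, 95% confidence interval -1.01 to -0.28, adjusted p = 0.0282) and rested on low counts, 38 to 120 in WT and 26 to 67 in Ahr-/-. The deposited scale compresses low counts, and the difference was -1.13 on log2 of the normalized count plus 1 and -1.15 with voom. The call was lost without WT M1 (adjusted p = 0.0551) and without Ahr-/- F1 (0.0548), F2 (0.0568), F3 (0.0644) or M3 (0.0708), while the difference itself kept between -0.75 and -0.51 with any 1 sample left out. It was lost as well with no minimum mean (adjusted p = 0.0671), with no term for sex (0.0582) and without WT F3 and Ahr-/- F3 together (0.0947), the last chosen after seeing the data.

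Thus 2 of the 8 tested members were called, both lower in Ahr-/-, where 8.84% of the 11346 tested genes were called in either direction and 3.68% as lower. The median difference over the 8 members was -0.16, against 0.00 over all genes. The genes called fell from 1003 to 623 without Ahr-/- F1. The other 6 members were not past the threshold, and their differences ran from -0.39 for Cd274 to 0.21 for Cd44.

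Among these, Cd274 lay at 11.51, 12.82 and 13.73 in WT and at 11.59, 12.17 and 13.34 in Ahr-/- (lowest, median and highest). The groups overlapped, with 2 WT samples above every Ahr-/- sample, and the difference of -0.39 had a 95% confidence interval of -0.91 to 0.14 and ran from -0.55 without WT M3 to -0.21 without WT M1. Cd80 had its median at 11.98 in WT and 11.83 in Ahr-/-, and its difference of 0.00 had an interval of -0.37 to 0.38. Cd44, the hyaluronan receptor, was above every WT sample in 4 of 6 Ahr-/- samples, yet its difference of 0.21 (SE 0.13) gave an adjusted p of 0.335. For Cd86, Cd9 and Icam1 the differences were -0.27, 0.11 and -0.05, with overlapping groups in each case.

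**Figure D2:**
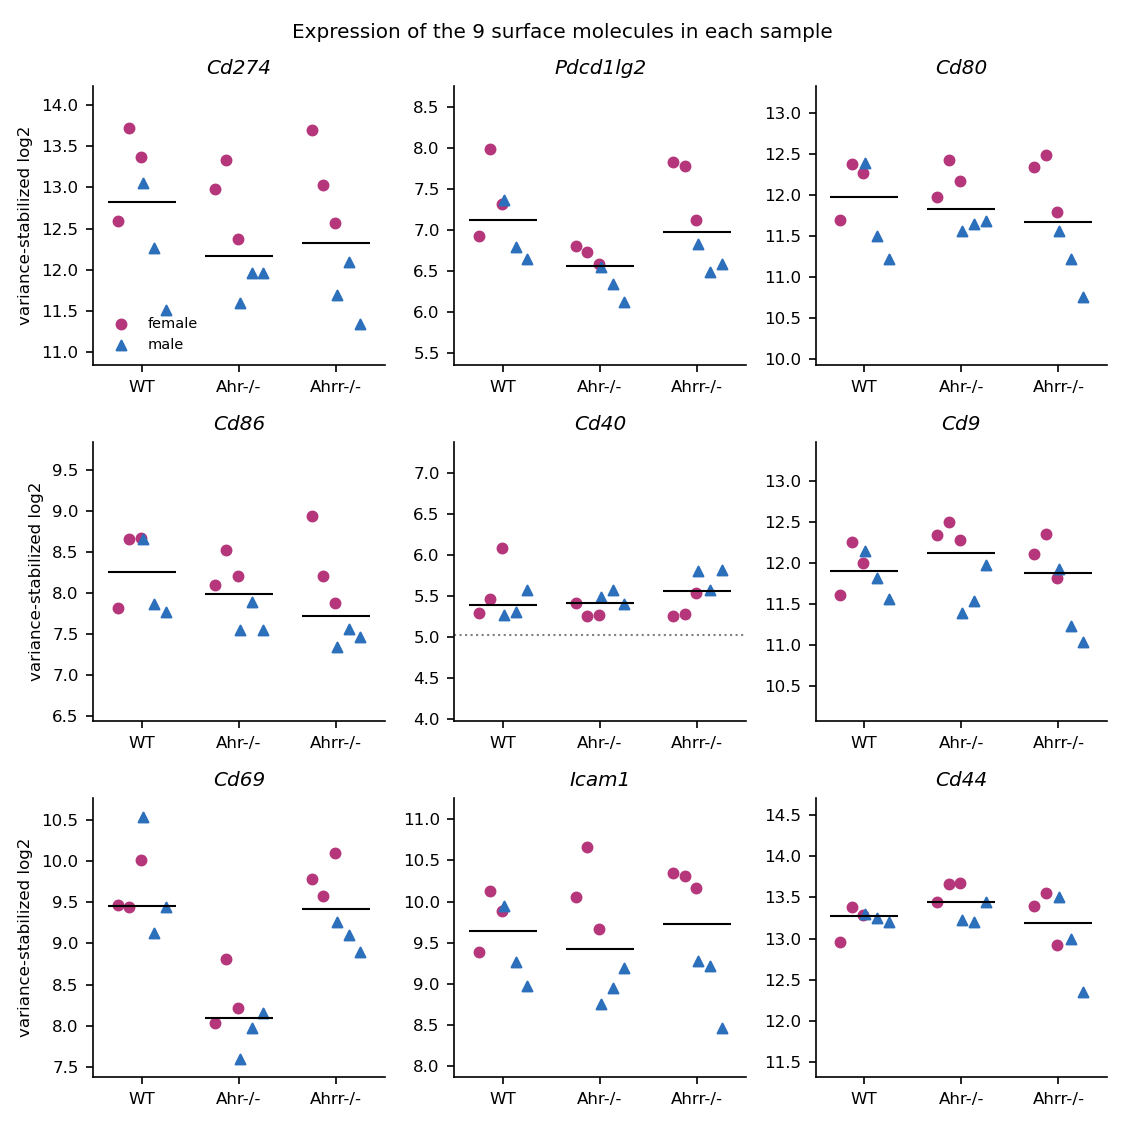
Variance-stabilized log2 value of each member in each of the 18 samples, by genotype, with females as circles, males as triangles and a bar at the median of each genotype. Cd69 is lower in all 6 Ahr-/- samples than in any WT or Ahrr-/- sample, and Cd40 lies just above the dotted line at 5.02, the value of a count of 0.

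Samples labelled Ahrr-/- were compared with WT in the same way, using the same WT samples. With limma, 0 of 8 tested members were called, and 9 of 11546 genes (0.0779%) were, with 853 genes at an unadjusted p below 0.05, and limma voom on the recovered counts called 4 genes and 0 members. The 9 became 4 to 25 with any 1 sample left out, 25 without Ahrr-/- F1. The neutrophil markers S100a8 (2.06) and S100a9 (2.10) were among the 9, higher in Ahrr-/-. They were the only 2 of 6 tested neutrophil markers called. Retnlg, the most abundant, had a difference of -0.07, and the median sum of the list was 35615 normalized counts in Ahrr-/- and 36170 in WT. Differences of the members, Ahrr-/- minus WT, ran from -0.35 for Cd274 to 0.03 for Icam1, with a median of -0.18 against 0.01 over all genes. Cd69 lay at 8.90, 9.42 and 10.10 in Ahrr-/- (lowest, median and highest), with 2 samples below every WT sample, and its difference was -0.22 with a 95% confidence interval of -0.72 to 0.28. Pdcd1lg2 had a difference of -0.07 and an interval of -0.51 to 0.38. The intervals of Cd274 (-0.97 to 0.27), Cd86 (-0.83 to 0.15) and Cd80 (-0.72 to 0.29) leave room for a lower level in Ahrr-/- of a size that 6 samples per group could not resolve.

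Samples labelled Ahr-/- and Ahrr-/- were also set against each other directly, with Ahr-/- samples that the first comparison used as well. Cd69 and Pdcd1lg2 were again the members called, 2 of 8, both lower in Ahr-/-, where 14.9% of 11474 genes were called in either direction and 8.04% as lower. For Cd69 the difference, Ahr-/- minus Ahrr-/-, was -1.32 (SE 0.16, adjusted p = 9e-05). All 6 Ahr-/- samples were below all 6 Ahrr-/- samples, by a gap of 0.09 between Ahr-/- F2 and Ahrr-/- M3. Pdcd1lg2 ran from 6.49 to 7.82 in Ahrr-/- (median 6.97), and 2 of 6 Ahr-/- samples were below that range. Its difference was -0.58 (SE 0.16, adjusted p = 0.0262), a call that was lost without Ahr-/- F1 (0.0577), F2 (0.0599) or M3 (0.0631), with no minimum mean (0.0511), with quantile normalization (0.0703) and with no term for sex (0.113). With any 1 sample left out the difference ran from -0.66 to -0.50, and with voom it was -1.08. The other 6 members had differences from -0.08 for Icam1 to 0.32 for Cd44, and the median over the 8 was 0.02. Markers of other cells were called here too, all lower in Ahr-/- except Retnlg (1.29) and Itgae (0.47), namely Jchain (-3.20), S100a8 (-1.73), S100a9 (-1.69), Epcam (-1.12), Col1a2 (-1.09), Krt8 (-1.08), C1qb (-1.06), Cdh1 (-1.02) and Cdh5 (-0.70), and S100a8 and S100a9 were also higher in Ahrr-/- than in WT. Of the eosinophil markers, Prg2 (2.07), Alox15 (0.79), Il5ra (0.75) and Siglecf (0.72) were higher in Ahr-/-, and the part of these shifts in the values of Cd69 and Pdcd1lg2 was not tested. Genes called in all numbered 1708, and between 818 without Ahr-/- M3 and 2574 without Ahrr-/- F1.

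**Figure D3:**
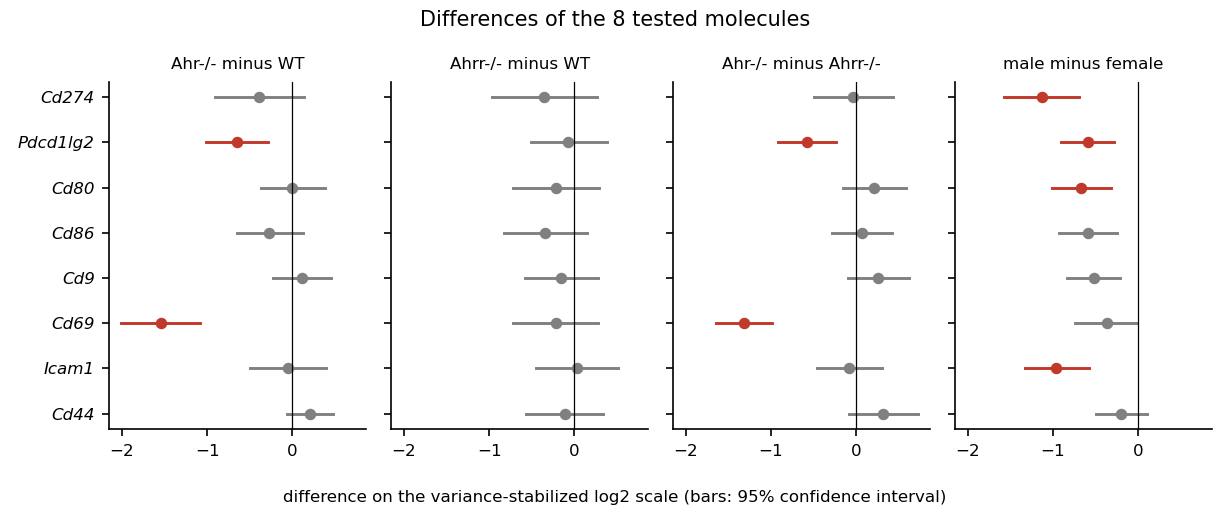
Difference of each tested member on the variance-stabilized log2 scale in 4 comparisons, with bars for the 95% confidence interval and red for an adjusted p below 0.05. Cd69 is furthest from 0 in both comparisons with Ahr-/-, at -1.54 and -1.32, and Cd274 and Icam1 in the comparison of the sexes, at -1.13 and -0.96.

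Male and female samples were compared over all 18 samples with genotype in the model, and here Cd274 and Icam1 had the largest differences on the deposited scale. Cd274 lay at 12.37, 13.03 and 13.73 in the 9 females (lowest, median and highest) and at 11.34, 11.96 and 13.06 in the 9 males. All males but WT M1, 8 of 9, were below every female. The male minus female difference was -1.13 (SE 0.21, 95% confidence interval -1.58 to -0.69, adjusted p = 0.00798), and it was -0.95 within WT, -1.06 within Ahr-/- and -1.40 within Ahrr-/-. Icam1 lay at 9.39, 10.13 and 10.66 in females and at 8.46, 9.19 and 9.95 in males. Again 8 of 9 males were below every female, with WT M1 the exception. The difference was -0.96 (SE 0.18, 95% confidence interval -1.33 to -0.58, adjusted p = 0.00798), made up of -0.41 within WT, -1.17 within Ahr-/- and -1.29 within Ahrr-/-.

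Cd80 and Pdcd1lg2 were lower in males too, with less margin. Cd80 lay at 11.69, 12.27 and 12.49 in females and at 10.76, 11.56 and 12.39 in males, where WT M1 was the only male above the lowest female. The difference was -0.67 (SE 0.17, adjusted p = 0.0345) and ran from -0.78 to -0.58 with any 1 sample left out. Its adjusted p was between 0.0502 and 0.0814 without any 1 of 12 samples (WT F2, F3, M2 or M3, Ahr-/- F2, M1, M2 or M3, Ahrr-/- F1, F2, M2 or M3), 0.0722 with no minimum mean and 0.0705 without WT F3 and Ahr-/- F3 together. Pdcd1lg2 lay at 6.58, 7.12 and 7.98 in females and at 6.12, 6.59 and 7.36 in males, and 4 of 9 males were below every female. The difference was -0.59 (SE 0.15, adjusted p = 0.0364) and ran from -0.67 to -0.52 with any 1 sample left out. Its adjusted p was between 0.0602 and 0.0818 without any 1 of 11 samples (WT F2, M2 or M3, Ahr-/- F1, F2, M2 or M3, Ahrr-/- F1, F2, M2 or M3), 0.082 with no minimum mean and 0.127 with no term for genotype. As a size, it was -1.01 on log2 of the normalized count plus 1 and -1.06 with voom.

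In all, 4 of 8 tested members were called between the sexes, all lower in males, against 3.06% of 11468 genes called in either direction and 2.46% called as lower. The difference was below 0 for 8 of 8 members and for 46.9% of all genes, and its median was -0.59 over the members and 0.01 over all genes. The remaining members missed the threshold, with differences of -0.59 for Cd86 (adjusted p = 0.0522), -0.52 for Cd9 (0.0634), -0.37 for Cd69 (0.262) and -0.20 for Cd44 (0.48). One male, WT M1, was the highest of the WT males for 8 of the 9 members, and without it 7 of 8 members were called, among them Cd86 (0.00848), Cd9 (0.0207) and Cd69 (0.0248). Cd86 was also called without WT F1 (0.00847) or Ahrr-/- F3 (0.0348), with a stricter minimum mean (0.0417) and on log2 of the normalized count plus 1 (0.045). Cd9 was called without WT F1 (0.0174), Ahrr-/- F3 (0.049) or Ahrr-/- M1 (0.0357) and with the stricter minimum (0.0493). With any of 10 other samples left out, 2 members were called, and these were WT F2, M2 and M3, Ahr-/- F2, M2 and M3, and Ahrr-/- F1, F2, M2 and M3. Ahrr-/- M3, which had the lowest eosinophil sum, was the lowest of all 18 samples for Cd274, Cd80, Cd9, Icam1 and Cd44. Without it Cd274 and Icam1 kept their calls. Cd80 and Pdcd1lg2 lost theirs, at differences about as large (-0.58 and -0.56). Genes called in all, 351, ranged from 142 without Ahr-/- M1 to 733 without WT F1.

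Within a genotype there were 3 samples of each sex. In Ahr-/-, all males were below all females for Cd274, Pdcd1lg2, Cd80, Cd86, Cd9 and Icam1, where 23.8% of tested genes had no overlap in either direction. In Ahrr-/- this held for Cd274, Pdcd1lg2, Cd80, Cd86, Cd69 and Icam1, and all males were above all females for Cd40, against 11.5% of tested genes. In WT the sexes overlapped for each of the 9 members, and 8.92% of tested genes had no overlap. Whether the genotype difference itself depended on sex was tested with an interaction term. For Ahr-/-, limma called 0 of 8 members and 0 of 11346 genes (0%), with 533 genes at an unadjusted p below 0.05, and voom called 0. For Ahrr-/-, 0 of 8 members and 0 of 11546 genes (0%) were called, with 544 genes at an unadjusted p below 0.05, and voom again called 0. Icam1 had the largest interaction of the members in both, at -0.76 (95% confidence interval -1.58 to 0.07) and -0.88 (-1.74 to -0.03), with adjusted p of 0.954 and 0.727. All 8 members had an interaction below 0 for Ahrr-/-, as did 52.2% of all genes, with a median of -0.59, against -0.02 over all genes. For Ahr-/- it was below 0 for 7 of 8, with Pdcd1lg2 (0.11) the exception, and for 51.1% of all genes. The median was -0.33, against -0.01 over all genes. The members varied together from sample to sample, as described below, so these signs are not independent of each other. Both interactions used the same WT samples.

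Other transcripts moved with sex, and were examined as gene lists. Of 15 NF-kB response genes, 8 were called as lower in males and 0 as higher, with a median difference of -0.75, and the 4 with the largest differences were Nfkbiz (-1.02), Ccl3 (-1.02), Ccl4 (-0.97) and Tnf (-0.87). Of 16 immediate early genes, which cell isolation can induce, 6 were called as lower in males and 0 as higher, with a median of -0.47, led by Nr4a3 (-1.26), Nr4a1 (-0.91), Nr4a2 (-0.82) and Jun (-0.77). The summed immediate early transcripts had a median of 81244 normalized counts in females and 63871 in males, with Dusp1 the most abundant. By contrast, 0 of 9 tested interferon gamma response genes were called (limma), at a median of 0.02. Macrophage and dendritic cell markers went the other way, with 2 of 11 called as higher in males (H2-Aa 1.48 and H2-Ab1 1.34) and a median sum of 3067 normalized counts in males and 1646 in females. Of 8 epithelial markers 0 were called, at a median of 0.51 and a median sum of 5704 in males and 3767 in females, and plasma and B cell markers, 0 of 3 called, summed to 740 and 348. The mast cell marker Kit (-0.94, median sum of its list 179 in females and 77.3 in males) and the neutrophil marker Ltf (-0.84) were lower in males, like the members. The eosinophil markers summed to a median of 37590 in females and 35537 in males. What part these transcripts have in the lower Cd274, Icam1, Cd80 and Pdcd1lg2 of males was not tested.

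**Figure D4:**
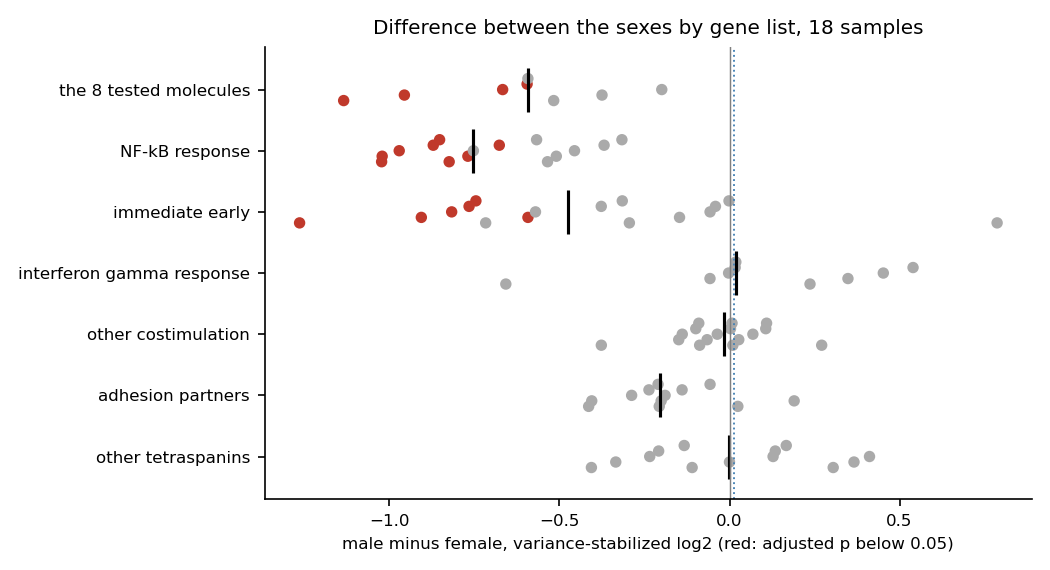
Male minus female difference of each tested gene in 7 lists, on the variance-stabilized log2 scale over 18 samples, with a bar at the median of each list, a dotted line at the median of all genes and red for an adjusted p below 0.05. The members (median -0.59) and the NF-kB response genes (median -0.75) lie to the left of 0, and the interferon gamma response genes (median 0.02) lie around it.

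Molecules related to the members were compared between the sexes as well, in lists of a size at which 3.06%, the share of all genes called, is less than 1 gene. Among 16 tested costimulatory and inhibitory ligands and receptors outside the member list, 0 were called between the sexes (limma, median -0.02), as for 13 tetraspanins and their partners (median 0.00) and 12 adhesion partners of ICAM1 and CD44 (median -0.20), while 351 genes were called in the table as a whole and 2145 had an unadjusted p below 0.05. Of the 10 genes known to set PD-L1 levels, 0 were called (limma, median -0.07). The CD40 adaptor Traf1 was the only one of 9 called, lower in males (-0.59, adjusted p = 0.0166), where the median of the list was -0.18. Slc3a2 was the only one of 16 eosinophil surface molecules called, lower in males (-0.70, adjusted p = 0.0175), where the median of the list was -0.20.

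The same lists were read for Ahr-/- against WT, where Cd69 and Pdcd1lg2 were lower and 8.84% of all genes were called, a share that is 1 gene in a list of 9 to 16. Among 16 costimulatory and inhibitory molecules outside the member list, Cd47 was higher (0.65, adjusted p = 0.000549) and its receptor Sirpa lower (-0.44, adjusted p = 0.017). Traf5 was the only gene called of 9 CD40 adaptors and kinases (-0.56, adjusted p = 0.00394), and Ifngr2 the only one called of 10 PD-L1 regulators (-0.48, adjusted p = 0.0103). The tetraspanins Cd37 (0.63) and Tspan32 (0.54) were higher, while Cd9 was not past the threshold. Itgal, the alpha chain of the integrin that binds ICAM1, was higher (1.13, adjusted p = 1.52e-05), as was Itgax (0.42, adjusted p = 0.0376), while the difference of Icam1 itself was -0.05. Surface molecules of tissue eosinophils changed in both directions, 3 of 16 called as higher and 4 as lower, the largest being Clec4a4 (-4.13), Cd34 (2.40), Csf2rb (-1.45) and Cd84 (-1.07).

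Activation genes moved in both directions in Ahr-/-. Of 15 NF-kB response genes 4 were called as higher (Il1b 1.27, Bcl2a1b 1.04, Bcl2a1d 0.99 and Ccl3 0.83) and 1 lower, and of 16 immediate early genes Nr4a1 was higher (0.92) and Atf3 lower (-1.42). None of 9 interferon gamma response genes was called by limma, at a median of 0.00. Genes in marker lists of other cells were called as well. In the neutrophil list Retnlg (1.21) and Cxcr2 (0.65) were higher and the median sum was 84319 normalized counts against 36170 in WT, with Retnlg the most abundant at 82172 and 35385. In the acinar list, from the pancreas, Ctrb1 (-2.74) and Cela2a (-1.55) were lower and the median sum was 33.9 against 1151 in WT. Of 2 tested endothelial markers Pecam1 was lower (-0.63), where the median of the list was -0.27. Of 10 tested macrophage and dendritic cell markers only Csf1r was called, as higher (0.49), where the median of the list was 0.05. Among the eosinophil markers Prg2 (2.30) and Alox15 (0.58) were higher. Whether these, or the lower depth of the WT libraries, have a part in the difference of Cd69 was not tested.

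Most pairs of members varied together from sample to sample. Over 28 pairs of the 8 tested members, Pearson's r had a median of 0.677 and ran from -0.14 (Cd69 with Cd44) to 0.912 (Cd274 with Cd86), and 27 pairs were above 0, against a median of -0.004 and 49.7% above 0 over all pairs of tested genes. After the means of genotype and sex were removed, the median r was 0.653 for the members and -0.001 for all gene pairs. An exact test over the 46656 orderings within genotype and sex gave an adjusted p below 0.05 in 19 of 28 pairs, not among them Pdcd1lg2 with Cd69, whose r was 0.209 after removal of the means. How many of all gene pairs pass the same test was not determined, so this count does not set the members apart from other genes. For Cd274 and Cd86, r was 0.912 (permutation p = 1e-05, the smallest that 100000 permutations can give, adjusted p = 7e-05) and Spearman's rho 0.88 (permutation p = 1e-05, adjusted p = 5.6e-05). These permutations ran over all samples, and within genotype and sex r was 0.843 (exact adjusted p = 0.00669). Without the 2 samples farthest from the median of Cd274, r was 0.876. For Cd9 and Cd44, r was 0.831 (permutation p = 2e-05, adjusted p = 8e-05), rho was 0.831 (permutation p = 4e-05, adjusted p = 0.00016) and r without the 2 farthest samples was 0.735. Within genotype and sex it was 0.847 (exact adjusted p = 0.00168).

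**Figure D5:**
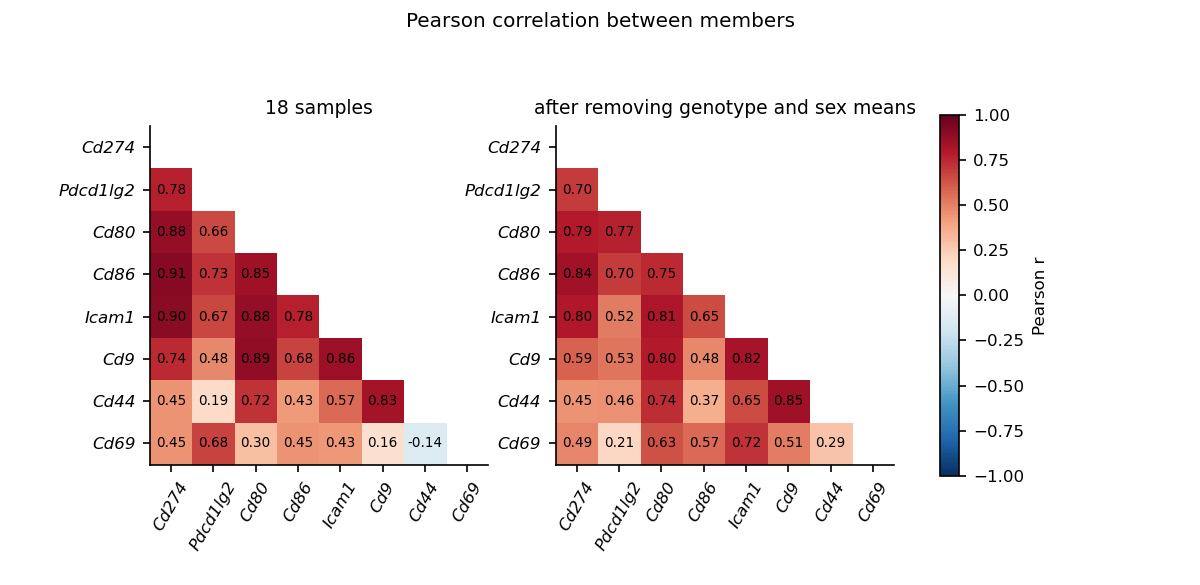
Pearson's r for each of the 28 pairs of tested members over 18 samples, on the deposited values (left) and after removing the means of genotype and sex (right). Cd274, Cd80, Cd86 and Icam1 are among the pairs of highest r, and Cd69 has the lowest values on the left.

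Genes most like each member were listed as a description, by Pearson's r over the 18 samples against 11467 other tested genes. Cd274 was most like Btg3 (0.953), Abcc1 (0.952) and Ccnt1 (0.948), and Cd86 was most like Abcc1 (0.916), Ccnt1 (0.916) and Cd274 itself (0.912). Cd80 had Rel, a subunit of NF-kB, as its closest gene (0.94), with Pxk (0.94) and Selenon (0.936). Icam1 was closest to Gpr132 (0.95), Ankrd33b (0.939) and Hpn (0.936), and Pdcd1lg2 to Kpna4 (0.924), Nfatc3 (0.923) and Zbtb25 (0.921). Cd9 was closest to Dennd5a (0.931), Bhlhe40 (0.924) and Ets2 (0.924). Cd44 had the highest value of all, with Laptm5 (0.962), Gmfg (0.955) and Rac2 (0.954). Cd69 was closest to Hspa13 (0.925), Prkag1 (0.912) and Clec4b1 (0.905), and its r with Prkag1 dropped to 0.561 once genotype and sex means were removed.

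By position, Cd274 (chr19:29362107-29388095, build GRCm38) and Pdcd1lg2 (chr19:29410919-29472927) lie 22824 bases apart, and the pair was the only one of the members within 150000 bases. Plgrkt overlaps Cd274 in the annotation, and since the counting is not stated to use strand, reads of a shared exon cannot be told apart. Plgrkt had a male minus female difference of -0.08, against -1.13 for Cd274. Jak2, at 49012 bases from Cd274, had one of -0.05. Next to Cd69 (chr6:129267324-129275375), the lectin gene Clec12a, 74408 bases away, was higher in Ahr-/- than in WT (1.76, adjusted p = 1.27e-07), opposite to Cd69. The other tested neighbour genes of Cd69, 2310001H17Rik and Clec2d, had differences of 0.08 and -0.07. Slc12a5, 55883 bases from Cd40, was the only other tested neighbour, outside the member list, that was called in Ahr-/- against WT (0.51, adjusted p = 0.0131).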

How the data were processed

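The deposited log2 values are variance-stabilized counts, which the authors obtained with DESeq2 after nf-core/rnaseq (STAR 2.5.2, RSEM 1.3.0, R 4.0.3, GRCm38). The libraries came from NuGEN Ovation amplification and single-end Illumina sequencing. Turning the transformation back gave whole counts for 100% of values (tolerance 0.0001), which served for depth, levels and count-based alternatives. All 18 value columns were used.

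Groups were compared with limma 3.58.1 (R 4.3.3), which fits each gene linearly and moderates its variance along a trend with the mean. Sex was a covariate, or genotype where the sexes were compared. Genes needed a mean at least 1 above the lowest value of 5.0212, and a call is a Benjamini-Hochberg adjusted p below 0.05. The interaction of genotype and sex used the same model.

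Levels are normalized counts per 1000 bases of exon (GENCODE M21). Promoter sequences are from RefSeq. Correlations used 100000 permutations, and an exact test over orderings within genotype and sex that was chosen after seeing the data. Descriptions were made in Python 3.11.15 (scipy 1.17.1, pandas 2.3.3, numpy 2.4.6) and drawn with matplotlib 3.10.9. From a gene list, the text names the genes past the threshold, at most 4 by size of difference, and the most abundant. Members and lists were chosen with earlier results of these data known. Alternatives were no minimum mean and a stricter one of 3, centring on the median, quantile normalization, log2 of the normalized count plus 1, limma voom, no trend, a robust trend, no covariate, a replicate block, all 18 samples in one fit and leaving out each sample. Leaving out WT F3 and Ahr-/- F3 together was chosen after seeing the data. Cd69, Cd86 and Cd40 had no entry in the promoter table. Bone marrow eosinophils were not analysed here, and 1 gene is not reported here.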

Additional observations from a re-analysis of the deposited data

Results flagged for a closer look

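Cd40 in WT had 1 sample far from the other 5. WT F3 was at 6.09, and the next WT sample was at 5.57. Dixon's test marked it, as 1 of 27 groups of 6 samples (9 members in 3 genotypes), where chance alone marks about 1 in 20. The value stands for 9 reads in the library with the lowest total count, 3842977, and the most genes with counts, 20244. Cd40 was below the minimum for testing, so no comparison rests on this sample.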

How the results depend on the processing

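Of 1129 values of single genes under the alternatives, 1034 kept direction and side of the threshold, 41 lost a call, 11 gained one and 43 turned direction, and the cause was not tested. Cd69 kept its call in each of 24 alternatives, at -1.78 to -1.33 for Ahr-/- minus WT and -1.54 to -1.23 for Ahr-/- minus Ahrr-/-, and Cd274 and Icam1 kept theirs between the sexes in each of 28. Cd40 and Pdcd1lg2 have the fewest reads of the members, and no fit at equal depth was made. The stricter minimum left Pdcd1lg2 untested, and Cd86 in the comparison of Ahr-/- with Ahrr-/-.

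For Ahr-/- against WT, members called were 1 with no minimum mean, with the stricter minimum, with no sex covariate and without WT F3 and Ahr-/- F3 together (chosen after seeing the data), and 1 to 2 leaving out a sample. Genes called were 553 with all 18 samples in one fit, 586 without both F3 samples and 623 to 1124 leaving out a sample. Cd80 was -0.06 with quantile normalization. Leaving out a sample gave -0.10 to 0.16 for Cd80, -0.003 to 0.21 for Cd9 and -0.21 to 0.11 for Icam1.

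For Ahrr-/- against WT, genes called were 4 with no minimum mean, centred on the median, on log2 of the normalized count plus 1, with voom and with the replicate block, 5 with the stricter minimum and quantile normalization, 14 with all samples in one fit and 4 to 25 leaving out a sample. Icam1 was -0.01 centred on the median. Leaving out a sample gave -0.20 to 0.06 for Pdcd1lg2, -0.33 to 0.01 for Cd69, -0.11 to 0.20 for Icam1 and -0.21 to 0.04 for Cd44. Members called were 0 throughout. Samples of the same number correlated above 0.1 in 1, 3 and 2 of 6 pairs between the groups, over a range of -0.592 to 0.473. So few correlations cannot decide whether the numbers pair the mice, and the labels do not say. The block changed no call of a member, and genes called with it were 918 for Ahr-/- against WT and 1946 for Ahr-/- against Ahrr-/-.

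For Ahr-/- against Ahrr-/-, members called were 1 with no minimum mean, the stricter minimum, quantile normalization and no sex covariate, and 1 to 2 leaving out a sample. Genes called were 828 with the stricter minimum, 994 with no sex covariate and 818 to 2574 leaving out a sample. Cd274 was 0.03 centred on the median and 0.10 without both F3 samples, where Icam1 was 0.03. Leaving out a sample gave -0.14 to 0.12 for Cd274, -0.01 to 0.22 for Cd86 and -0.21 to 0.03 for Icam1.

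Between the sexes, members called were 2 with no minimum mean and 2 to 7 leaving out a sample, and genes called were 163 with no minimum mean, 211 with no genotype covariate and 142 to 733 leaving out a sample. Cd44 was 0.04 with quantile normalization. In the interaction of sex with Ahr-/-, quantile normalization gave 0.12 for Cd274, -0.005 for Pdcd1lg2 and 0.06 for Cd80, and Pdcd1lg2 was -0.02 on log2 of the normalized count plus 1 and -0.18 with voom. Leaving out a sample gave -0.49 to 0.29 for Cd274, -0.17 to 0.35 for Pdcd1lg2 and -0.40 to 0.18 for Cd80.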
